A study of Mus musculus with 36 samples.

Results

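The 10 genes described here were Trp53, the gene for p53 itself, and 9 genes that p53 is known to switch on: Mdm2, Cdkn1a, Ccng1, Phlda3, Aen, Fas, Bbc3, Trp53inp1 and Sesn2. They were chosen with earlier results of these data known. The rule takes genes by name and uses no measured value, and every array probe that carried one of these gene names was kept. This gave 13 probes for 10 of the 31093 gene names on the array, with 2 probes each for Cdkn1a, Aen and Trp53inp1 and 1 for each of the other genes. RNA came from the blood of male C57BL/6J mice, 8 to 10 weeks old at irradiation, and was taken 7 days afterwards. There were 6 groups of 6 mice, with 1 single-colour Agilent array for each mouse, 36 in all. The controls were sham-irradiated, and a second group received 3 Gy of x-rays. Another 3 groups received 3 Gy of a mixed field in which neutrons made up 5, 15 or 25% of the dose, so that their neutron doses were 0.15, 0.45 and 0.75 Gy. The last group received 0.75 Gy of neutrons with no added x-rays. The labels give that exposure as 100% neutron and the methods as 83%, because the source also emits some photons, and it is called neutron alone here. The 25% mixed field and neutron alone therefore carried the same neutron dose and differed in the x-rays added to the first. The total dose also differed between those groups.

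p53 is a transcription factor that is stabilised when DNA is damaged. It binds paired copies of a short sequence near its target genes and raises their transcription, and the products stop the cell cycle, aid repair or start cell death. Mdm2 marks p53 for destruction and is itself induced by p53, which closes a negative feedback loop, and p53 activity is set mainly through the stability of the protein rather than through Trp53 RNA. In blood, lymphocytes and above all B cells are among the cells most readily killed by radiation, and p53 target RNAs are widely used as markers of exposure. Blood holds many cell types, and in such bulk samples fewer cells of a type and less RNA per cell cannot be told apart.

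The promoters are shown because the genes are grouped by what p53 binds. RefSeq windows of 300 bases (250 before and 50 after the start site, build GRCm38.p6) were available for 9 of the 10 genes, all but Trp53inp1. They were searched on both strands for the p53 consensus half-site, a pattern of 10 bases that is its own reverse complement, and for a pair of half-sites 0 to 13 bases apart with at most 2 mismatches in total. An exact half-site lay in the windows of 5 of the 9 genes, 55.6%, against 9.55% of all 27025 genes with a window. A pair lay in 2 of the 9, Cdkn1a and Ccng1, 22.2% against 4.71% of all genes. These matches describe letters in a window and not binding. Capitals mark the matched sites in the sequences below, each written 5′ to 3′ on the strand of the gene and ending at the base before the start site for Cdkn1a and Ccng1.
Cdkn1a, upstream start, chr17:29090729-29090978: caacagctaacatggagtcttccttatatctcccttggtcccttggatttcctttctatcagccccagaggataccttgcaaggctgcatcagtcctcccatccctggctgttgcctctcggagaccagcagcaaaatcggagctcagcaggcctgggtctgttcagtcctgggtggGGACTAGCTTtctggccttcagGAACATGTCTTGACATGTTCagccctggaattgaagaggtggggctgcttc
Ccng1, minus strand, chr11:40755287-40755536: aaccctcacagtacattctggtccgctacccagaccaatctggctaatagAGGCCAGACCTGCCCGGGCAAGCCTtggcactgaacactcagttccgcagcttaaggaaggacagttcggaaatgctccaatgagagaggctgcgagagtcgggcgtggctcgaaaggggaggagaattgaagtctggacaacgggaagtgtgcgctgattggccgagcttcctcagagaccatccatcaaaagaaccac
Trp53, plus strand, chr11:69580259-69580318: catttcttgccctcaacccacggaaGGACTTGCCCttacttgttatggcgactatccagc
Mdm2, minus strand, chr10:117710910-117710969: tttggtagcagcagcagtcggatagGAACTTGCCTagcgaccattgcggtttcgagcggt

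In Cdkn1a the exact half-sites began 73 and 51 bases before the upstream start, and the second of them was followed without a gap by a half-site with 1 mismatch. RefSeq gives Cdkn1a a second start 2790 bases away, and its window held no match. In Ccng1 the exact half-site began 185 bases before the start and stood in 2 overlapping pairs, with 1 and 2 mismatches. The single half-sites of Trp53 and Mdm2 began 75 and 186 bases before their starts. Aen held GGGCTTGTCC at chr7:78895937-78895946, and the windows of Phlda3, Sesn2, Bbc3 and Fas held no match.

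The probes decide what was measured, and 3 of the 13 raised a question of position. The array's own annotation (build mm9) placed the Trp53 probe at chr17:54560025-54560084, whereas the gene lies on chromosome 11, and placed both Aen probes on chromosome 4, whereas that gene lies on chromosome 7. A near-identical copy elsewhere could share these probes' signal, so the values for Trp53 and Aen are uncertain to that extent. The Aen probes also overlapped by 50 of 60 bases and were not independent. Cdkn1a had a probe printed in 10 spots at chr17:29237377-29237436 and a probe in 1 spot at chr17:29227986-29228045, which lay 9391 bases upstream and was designed to another transcript variant. The first 30 of the 60 bases of each are given, and capitals mark the stretch that stands in both of the Aen pieces printed.
Cdkn1a, probe of 10 spots: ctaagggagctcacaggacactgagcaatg
Cdkn1a, variant probe: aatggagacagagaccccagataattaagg
Trp53: ccttagagttaaaggatgcccatgctacag
Aen, brighter probe: AAGTCAGCTTGCTCATAGTAccagaccatc
Aen, dimmer probe: ttactgggagAAGTCAGCTTGCTCATAGTA

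All levels below are log2 signals of 1 probe with the array's median probe set to 0, so they can be compared between arrays but not between probes. All 10 genes were above background, and 8 also varied enough to be tested among 15083 genes. Bbc3 and Sesn2 were 1.5-fold or more from their own median on fewer than 8 arrays and were tested only in an alternative without that requirement. A gene was called changed where limma's p fell below 0.001 and its value after Benjamini-Hochberg adjustment below 0.05.

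The arrays were read in 4 scan sessions on 10 slides. Session 1 held 5 control and 5 x-ray arrays, session 2 held 5 arrays each of the 5 and 15% mixed fields, session 3 held all arrays of the 25% mixed field and neutron alone, and session 4 held 1 array each of the controls, x-rays, 5% and 15%. The 25% mixed field and neutron alone shared no session or slide with the controls or the x-rays, so in those comparisons session and exposure cannot be told apart. For the 5 and 15% mixed fields only the session 4 arrays give a value within a session. Per array, 15569 to 21294 of 39429 probes were well above background. The group medians were 19920 in controls, 18059 after x-rays, 18799, 18213 and 19849 in the 5, 15 and 25% mixed fields, and 16564 after neutron alone. Of the blood cell markers, all 6 B cell markers were called lower than in controls after x-rays and all 3 mixed fields and 5 of 6 after neutron alone, with median log2 fold-changes of -4.31, -3.71, -4.18, -4.30 and -1.41. Red cell markers were called higher for 5, 5, 5, 3 and 6 of 6 genes in the same order. Their part in the results below was not tested.

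Against the controls, Cdkn1a was called higher and Trp53 lower after every exposure, and Mdm2, Ccng1 and Phlda3 were called higher in the 15 and 25% mixed fields, Mdm2 also in the 5% mixed field. After x-rays 2 of the 8 tested genes were called, Cdkn1a higher and Trp53 lower, where 12.9% of all genes were called higher and 16.9% lower. In the 5% mixed field 3 were called, 2 higher and 1 lower, against 9.04% and 14.1% of all genes. In the 15% mixed field 5 were called, 4 higher and 1 lower, against 12.6% and 16.5%. The 25% mixed field gave the same split of 4 higher and 1 lower, against 10.9% and 13.9%. After neutron alone 2 were called, Cdkn1a higher and Trp53 lower, against 16.1% and 20.5%. The 8 genes had median log2 fold-changes of 0.39, 0.66, 0.86, 0.74 and 0.13 in these 5 comparisons, beside -0.11, -0.08, -0.02, -0.12 and -0.12 over all genes tested. The single higher call after x-rays and after neutron alone, and the single lower call in each comparison, were near the shares of all genes, and the 4 higher calls of 8 in the 15 and 25% mixed fields were above them. No test of the list was made, and all 5 comparisons use the same 6 control arrays. The genes were chosen with earlier results of these data known, so these counts are a description.

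Trp53 fell in every exposed group. Its level was 2.56 at the lowest, 3.00 at the median and 3.50 at the highest in the controls. It was 0.86, 1.62 and 2.55 after x-rays, 0.82, 1.53 and 1.78 in the 5% mixed field, and -0.02, 1.09 and 1.72 in the 15% mixed field. It was 1.39, 1.45 and 1.93 in the 25% mixed field and 1.28, 1.70 and 1.98 after neutron alone. Every one of the 30 exposed arrays lay below the lowest control, and the 5 exposed groups overlapped one another. The signal was well above background on all arrays but 1 of the x-ray group and 2 of the 15% group.

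The log2 fold-change of Trp53 was -1.39 (SE 0.278, limma adjusted p = 0.00115) after x-rays, a 2.61-fold lower level. It was -1.63 (SE 0.232, adjusted p = 0.000122) in the 5% mixed field and -2.11 (SE 0.329, adjusted p = 0.000171), or 4.31-fold lower, in the 15% mixed field. It was -1.5 (SE 0.198, adjusted p = 5.74e-05) in the 25% mixed field and -1.35 (SE 0.173, adjusted p = 2.56e-05) after neutron alone. Within session 1 the x-ray difference was -1.45, and the single arrays of session 4 gave -1.06, -1.68 and -1.26 for x-rays, 5% and 15%. The B cell markers were lower in the same groups, and their mean level ranged from 6.88 to 7.64 in controls, from 2.05 to 5.31 after x-rays, from 2.76 to 4.66 in the 25% mixed field and from 5.80 to 6.27 after neutron alone. The part of these cells in the fall of Trp53 was not tested. With the slide as a block the x-ray, 5% and 15% calls were lost, with the session as a block the 5% and 15% calls, and with the replicate number as a block the x-ray call was lost, while Trp53 stayed lower than in controls under every alternative in which it was tested.

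Mdm2, the ubiquitin ligase that removes p53, rose in all 3 mixed fields. Its control level ran from 5.94 through a median of 6.20 to 6.63. After x-rays it was 6.17, 7.22 and 7.36, in the 5% mixed field 6.61, 7.66 and 7.93, and in the 15% mixed field 6.75, 7.86 and 8.44. In the 25% mixed field it was 7.19, 7.27 and 8.22, and after neutron alone 6.28, 6.56 and 6.79. All arrays of the 15 and 25% mixed fields stood above every control. In the x-ray and 5% groups 1 array each stayed within the control range, and after neutron alone only 2 of 6 arrays stood above it.

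The log2 fold-change of Mdm2 was 1.17 (SE 0.264, limma adjusted p = 0.00287) in the 5% mixed field, 1.5 (SE 0.267, adjusted p = 0.000448) in the 15% mixed field and 1.19 (SE 0.222, adjusted p = 0.000721) in the 25% mixed field. The 15% value is a 2.82-fold higher level. After x-rays the value was 0.82 (SE 0.230, limma adjusted p = 0.00816), short of the limit on p. Without x-ray replicate 5 the value was 1.00 (limma adjusted p = 0.000363) and was called. That array had 16548 probes well above background, the fewest of the x-ray group. With all arrays kept, the x-ray value was also called after scaling on the 75th percentile, centring on probes well above background or quantile normalization, and with array weights. After neutron alone it was 0.32, with a 95% interval from -0.01 to 0.64 (adjusted p = 0.0825). Within session 1 the x-ray difference was 0.73. The single arrays of session 4 differed from the control there by 1.28 after x-rays, 0.57 in the 5% and 0.72 in the 15% mixed field. From the x-ray array of session 4 the 5% and 15% arrays differed by -0.70 and -0.56. Over all arrays these differences from x-rays were 0.34 and 0.67. The 5 and 15% calls were lost with the session or slide as a block. The 5% call was also lost in 9 of 12 fits that each left out 1 array, where the log2 fold-change lay between 1.06 and 1.21 and p between 0.00103 and 0.00187. Under a normexp background correction that failed on several arrays the 5% value turned to -0.77.

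Cdkn1a encodes p21, the inhibitor of cyclin-dependent kinases through which p53 halts the cell cycle, and it was the member with the largest rise. In the controls its probe of 10 spots read 0.26 at the lowest, 0.68 at the median and 1.33 at the highest. After neutron alone it read 1.23, 1.98 and 2.65. After x-rays it read 1.45, 3.08 and 4.48. In the 5% mixed field it read 3.04, 3.13 and 4.54, in the 15% mixed field 3.07, 3.30 and 4.88, and in the 25% mixed field 3.50, 3.92 and 4.33. The 24 arrays that received x-rays, alone or in a mixed field, all stood above every control, as did 5 of the 6 neutron arrays. By median the order was controls, neutron alone, x-rays, 5%, 15% and 25% mixed field, and the ranges of x-rays and the 3 mixed fields overlapped. The x-ray arrays spread most, with an SD of 1.02 against 0.32 in the 25% mixed field.

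The log2 fold-change of Cdkn1a was 2.25 (SE 0.407, limma adjusted p = 0.000581) after x-rays, a 4.76-fold higher level. It was 2.75 (SE 0.315, adjusted p = 2.13e-05) in the 5% mixed field and 2.82 (SE 0.319, adjusted p = 1.59e-05) in the 15% mixed field, or 6.73-fold and 7.05-fold. It was 3.12 (SE 0.225, adjusted p = 3.90e-07), or 8.71-fold, in the 25% mixed field. After neutron alone it was 1.19 (SE 0.253, adjusted p = 0.00128), or 2.28-fold. Within session 1 the x-ray difference was 2.12, and the session 4 arrays differed by 2.90, 3.58 and 4.21 for x-rays, 5% and 15%. The neutron call was lost in 6 of 12 fits that each left out 1 array, those without control replicates 1, 2, 3 or 6 or neutron replicates 2 or 3. The log2 fold-change there lay between 1.09 and 1.17 and p between 0.0011 and 0.00124. It was also lost in one model over 36 arrays, in the deposited table, and with the slide as a random block or the replicate number as a block. With scan session or slide as a block the 5% call was lost and the 15% call was kept.

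The variant probe of Cdkn1a gave the same picture from another part of the gene. In the controls it read -2.98, -2.67 and -1.48 and was not well above background on any of the 6 arrays. It read -0.19, 1.07 and 1.77 after x-rays, where 5 of 6 arrays were well above background, and 0.68, 1.00 and 1.38 in the 5% mixed field. It read 0.77, 1.34 and 1.90 in the 15% and 0.52, 1.28 and 1.84 in the 25% mixed field. The exposed arrays with x-rays did not overlap the controls. With the controls set at the lowest signal that counts as well above background, or at their own signal where that was higher, the rise was at least 2.59-fold after x-rays, and at least 2.78-fold, 3.49-fold and 3.10-fold in the 5, 15 and 25% mixed fields. These bounds were not tested. For the measured differences from the controls, without the bound, limma's adjusted p was 5.16e-06, 4.25e-07, 3.88e-07 and 1.11e-06. After neutron alone it read -1.48, -0.90 and 0.08 and was not well above background on any of the 6 arrays, so no fold is given. This probe was lower after neutron alone than after x-rays (limma adjusted p = 0.00303).

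**Figure D1:**
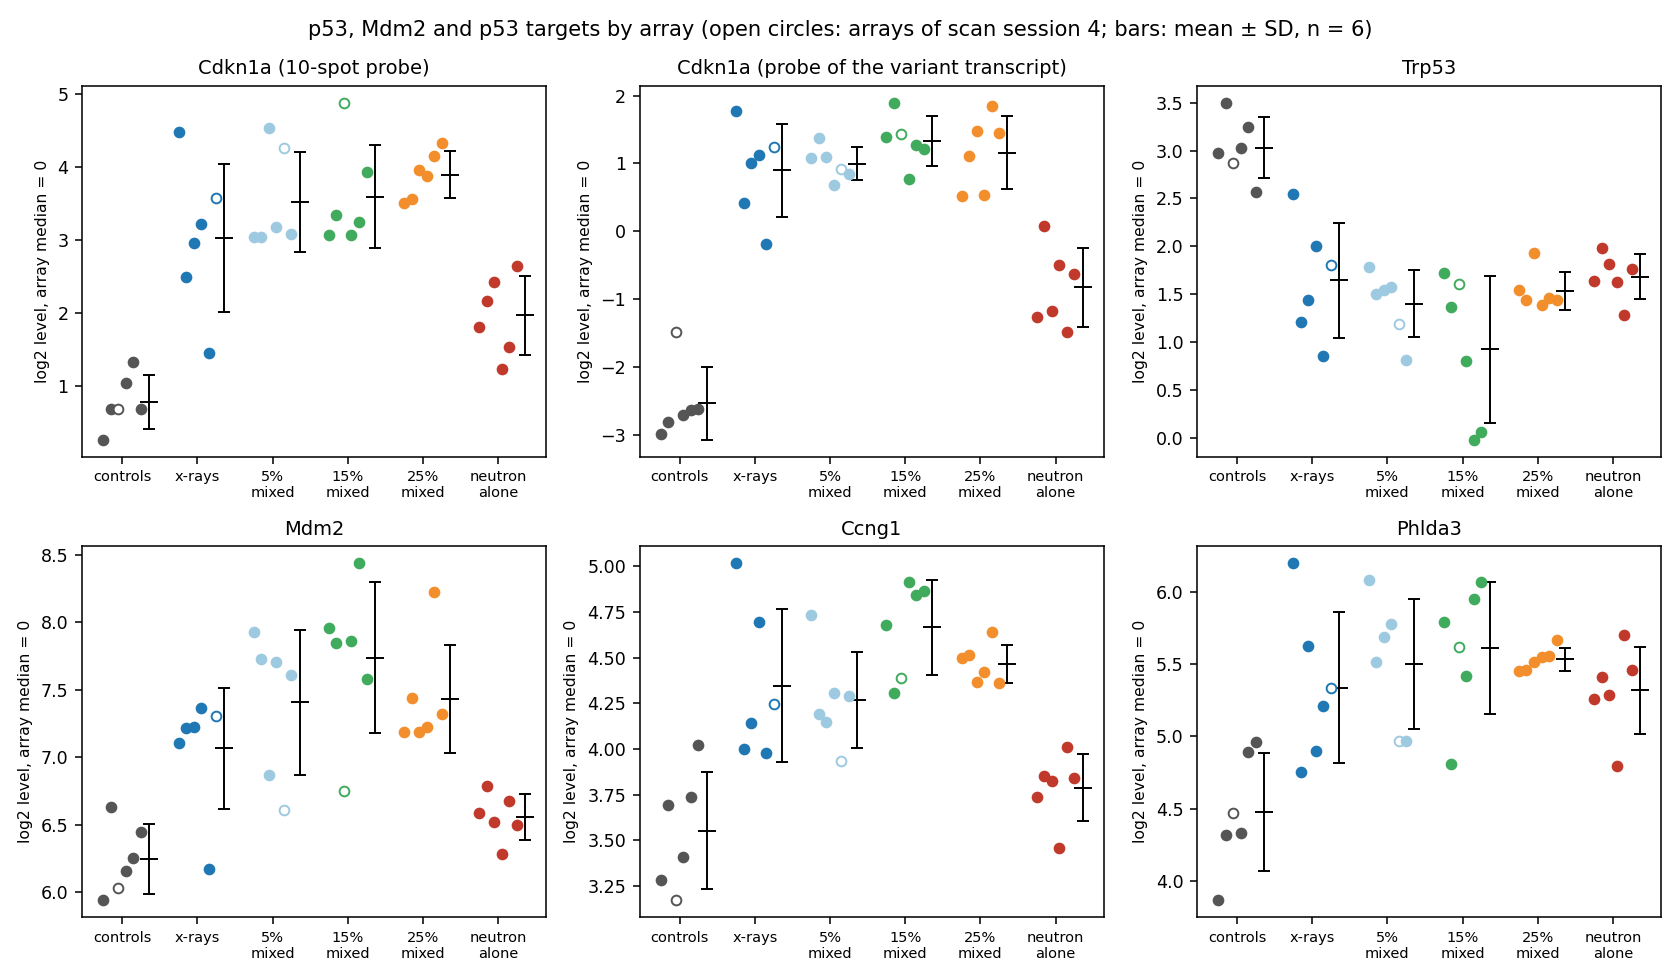
Log2 level (array median = 0) by group on every array for the genes called against controls: Cdkn1a on both probes, Trp53, Mdm2, Ccng1 and Phlda3. Bars give mean ± SD of 6 arrays and open circles the session 4 arrays. The Trp53 controls lie between 2.56 and 3.50, above all exposed arrays. On its main probe the Cdkn1a controls lie between 0.26 and 1.33, below all arrays that received x-rays.

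Ccng1, whose product cyclin G1 acts with a phosphatase on Mdm2, was called higher in the 15 and 25% mixed fields. Its level was 3.17, 3.55 and 4.02 in the controls, 3.98, 4.19 and 5.02 after x-rays, and 3.93, 4.24 and 4.73 in the 5% mixed field. It was 4.31, 4.76 and 4.91 in the 15% mixed field, 4.36, 4.46 and 4.64 in the 25% mixed field, and 3.46, 3.83 and 4.01 after neutron alone. Arrays of the 15 and 25% mixed fields all stood above every control, and no neutron array did. The log2 fold-change was 1.12 (SE 0.214, limma adjusted p = 0.000744) in the 15% and 0.91 (SE 0.189, adjusted p = 0.00146) in the 25% mixed field. It was 0.80 (adjusted p = 0.0104) after x-rays, 0.72 (adjusted p = 0.0164) in the 5% mixed field and 0.24 (adjusted p = 0.230) after neutron alone, all short of the threshold. The x-ray and 5% values were each called in 6 of 29 alternative fits, among them quantile normalization, one model over 36 arrays and the deposited table. The neutron value was called in 2 of 28. The 15% call was lost with the session or slide as a block, where it rested on 1 array of each group. The 25% call was lost with the replicate number as a block. Both calls were also lost under the normexp background corrections.

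Phlda3, a small protein that holds back the survival kinase Akt, was called higher in the 15 and 25% mixed fields. Its level was 3.86, 4.40 and 4.96 in the controls, 4.75, 5.27 and 6.20 after x-rays, and 4.97, 5.60 and 6.08 in the 5% mixed field. It was 4.81, 5.71 and 6.07 in the 15% mixed field, 5.45, 5.53 and 5.67 in the 25% mixed field, and 4.79, 5.35 and 5.70 after neutron alone. Its arrays of the 25% mixed field lay close together, with an SD of 0.0797, and all above the controls. The log2 fold-change was 1.14 (SE 0.265, limma adjusted p = 0.00284) in the 15% and 1.06 (SE 0.207, adjusted p = 0.000979) in the 25% mixed field, and both were called. It was 0.86 (adjusted p = 0.0155) after x-rays, 1.03 (adjusted p = 0.00665) in the 5% mixed field and 0.84 (SE 0.206, limma adjusted p = 0.00324) after neutron alone, none of them called. Among the alternative fits the x-ray value was called in 5 of 29, the 5% value in 7 of 29 and the neutron value in 10 of 28. The 15% and neutron results for this gene sat at the threshold, while the 25% call was lost only under the normexp background corrections. The 15% call was lost in 9 of 12 fits that each left out 1 array, with limma's p from 0.0013 to 0.00245. It was also lost with the session, slide or replicate number as a block. Of the 12 fits that each left out 1 array, the neutron value was called in 3. Those were the fits without control replicates 5 or 6 or neutron replicate 4, where it lay between 0.93 and 0.95.

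Aen, an exonuclease that degrades DNA during apoptosis, was called in no comparison with the controls. On the brighter of its overlapping probes the level was 4.99, 5.11 and 5.33 in the controls, 4.07, 5.37 and 5.68 after x-rays, and 5.31, 5.68 and 6.43 in the 5% mixed field. It was 5.41, 5.75 and 6.07 in the 15% mixed field, 5.38, 5.62 and 6.08 in the 25% mixed field, and 4.53, 4.91 and 5.00 after neutron alone. The arrays of the 15 and 25% mixed fields all stood above the controls, while 5 of 6 neutron arrays stood below them. The log2 fold-changes were -0.02, 0.61, 0.60, 0.57 and -0.29 in the order x-rays, 5%, 15%, 25% and neutron alone, with limma adjusted p of 0.966, 0.0335, 0.0133, 0.0225 and 0.0606. At an adjusted p below 0.05 alone, without the limit on p, the 3 mixed fields would have passed.

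The remaining death genes gave no call. Fas, the death receptor of the cell surface, ran from 3.46 to 4.83 in the controls and overlapped them in every exposed group. Its log2 fold-changes were -0.52, 0.15, 0.33, 0.00 and -0.08 (limma adjusted p from 0.136 to 0.996). Trp53inp1, a nuclear protein that promotes p53-driven death and autophagy, was tested on the dimmer of its probes, with log2 fold-changes from -0.26 to 0.02 (adjusted p from 0.334 to 0.997). Its brighter probe varied too little for the test and gave -0.52 (SE 0.208, adjusted p = 0.0454 without the fold requirement) after x-rays and between -0.27 and 0.14 in the other groups. Bbc3, whose product Puma is a direct trigger of mitochondrial apoptosis, ran from 5.05 to 5.92 in the controls. Its log2 fold-changes without the fold requirement were -0.10, -0.21, -0.33, -0.20 and -0.26 (limma adjusted p from 0.229 to 0.739). With normexp on the array's median background, where all genes moved by a median of -0.86, Bbc3 was called lower after neutron alone at -0.91 (limma adjusted p = 0.000166), as was Aen.

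Sesn2, a sestrin that restrains mTORC1 under stress, lay at 3.63, 4.08 and 4.70 in the controls and at 3.32, 3.51 and 3.54 after x-rays. All 6 x-ray arrays and 5 of 6 neutron arrays stood below every control. Without the fold requirement its log2 fold-change was -0.61 (SE 0.186, limma adjusted p = 0.0143) after x-rays and -0.56 (SE 0.168, adjusted p = 0.0117) after neutron alone. In the 5, 15 and 25% mixed fields it was -0.41, -0.11 and -0.46 (limma adjusted p of 0.186, 0.766 and 0.0864). None of these passed the limit on p.

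**Figure D2:**
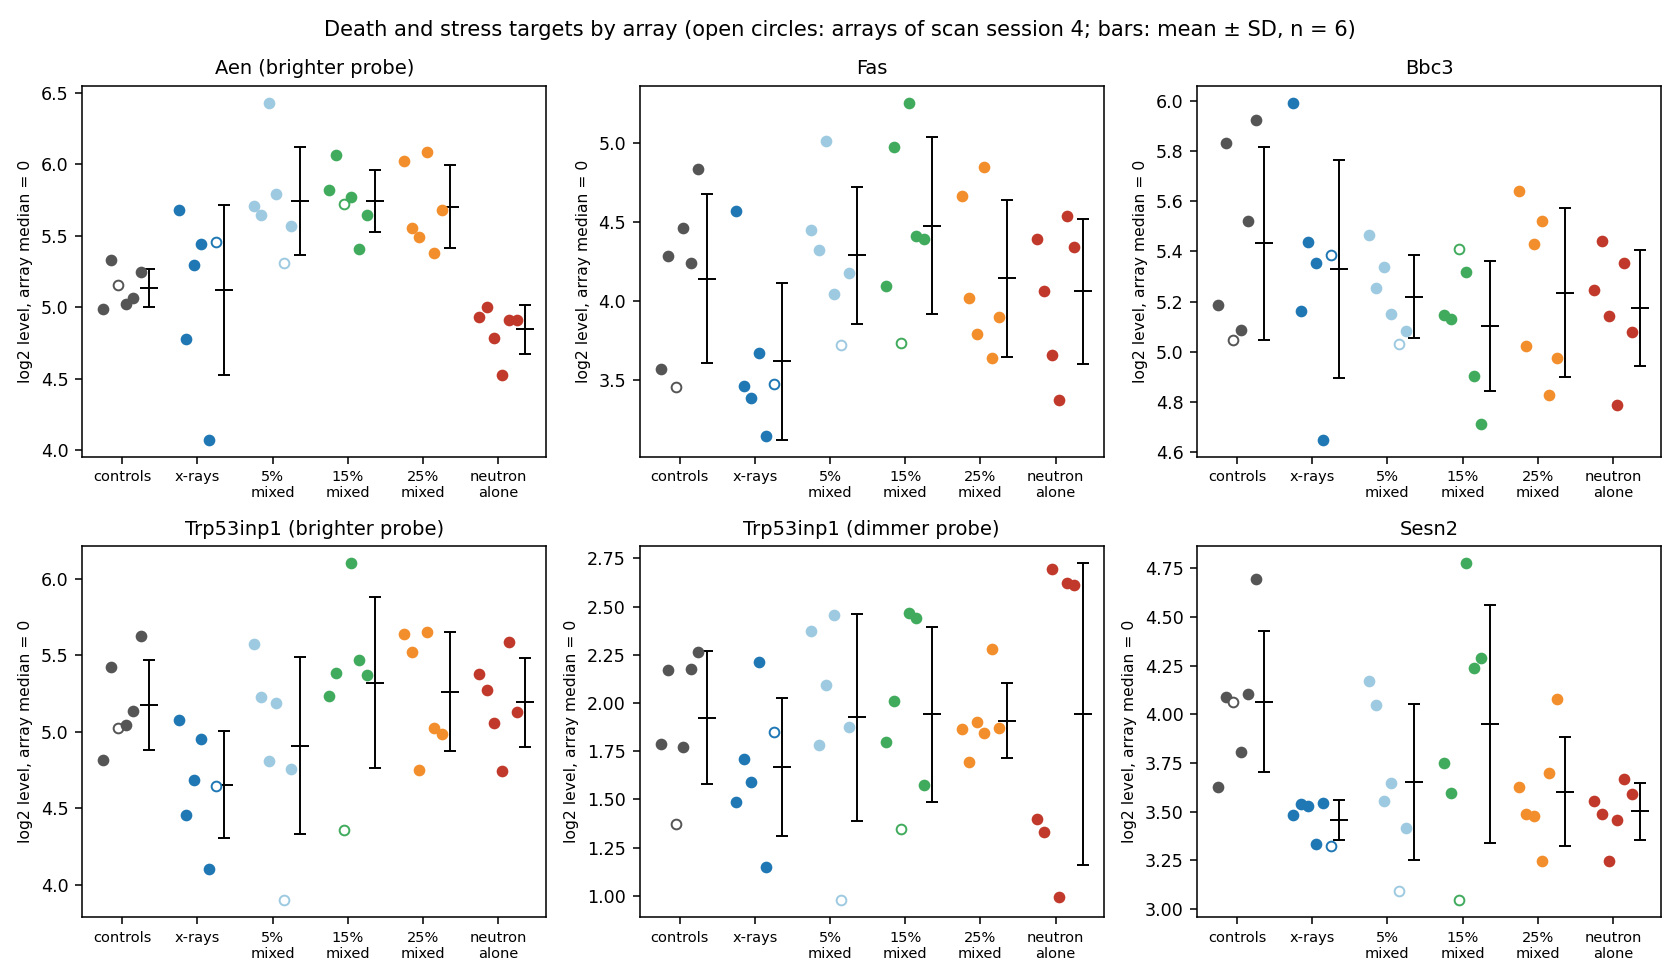
Log2 level (array median = 0) by group on every array for the death and stress genes, with bars for mean ± SD of 6 arrays and open circles for the session 4 arrays. Fas controls run from 3.46 to 4.83 and overlap every exposed group, while all 6 x-ray arrays of Sesn2 lie below its lowest control of 3.63.

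**Figure D3:**
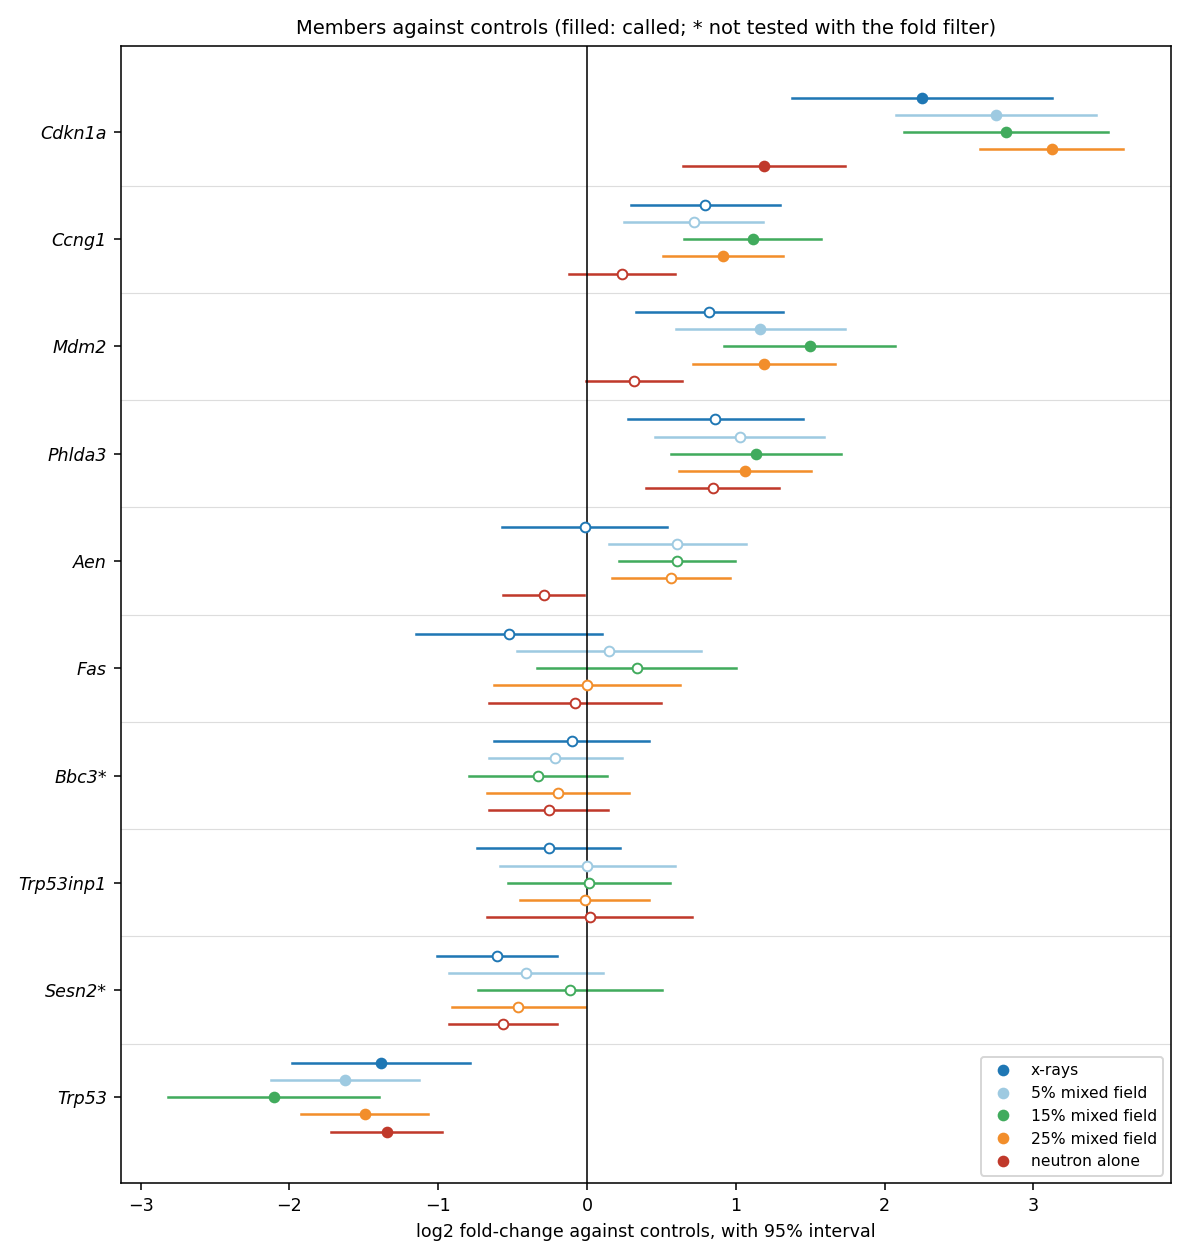
Log2 fold-change of each gene against the controls on the x axis, 1 point for each of the 5 exposures with its 95% interval, filled where called. Cdkn1a lies to the right in all 5, from 1.19 to 3.12, and Trp53 to the left in all 5, from -2.11 to -1.35.

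Between the exposures, none of the 8 genes was called against x-rays. In the 5% mixed field 0 of 8 were called, as were 0% of all genes. There 1 gene, Fas, had p below 0.05, as did 3508 of 15083 genes. In the 15% mixed field 0 of 8 were called against 4.09% of all genes, again with Fas alone at p below 0.05, as were 4244 of 15083 genes. In the 25% mixed field 0 of 8 were called against 2.61%, with none at p below 0.05 beside 4429 of 15083 genes. After neutron alone 0 of 8 were called against 12.9% of all genes, with 3 at p below 0.05, namely Cdkn1a, Ccng1 and Mdm2, each lower, beside 6041 of 15083 genes at that limit. The random variance t-test that the methods name also called 0 of 8 in each of these comparisons. For Cdkn1a the mixed fields lay above x-rays by 0.50 (95% interval from -0.49 to 1.49), 0.57 (from -0.44 to 1.57) and 0.87 (from -0.01 to 1.75) on the log2 scale. Neutron alone differed from x-rays by -1.06 (from -1.99 to -0.14, limma adjusted p = 0.0810). For Trp53 the neutron difference from x-rays was 0.04 (from -0.54 to 0.61).

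Neutron alone against the 25% mixed field set equal neutron doses side by side, with and without x-rays, within scan session 3. Of the 8 genes 3 were called, Cdkn1a, Mdm2 and Aen, all lower after neutron alone, where 7.35% of all genes were called lower and 4.02% higher. The median over the 8 genes was -0.45 on the log2 scale, beside 0.05 over all genes. For Cdkn1a, Mdm2, Aen and Ccng1 all 6 neutron arrays lay below the lowest of the 25% arrays. Cdkn1a differed by -1.93 (SE 0.263, limma adjusted p = 0.000205), a 3.82-fold lower level. Mdm2 differed by -0.87 (SE 0.210, adjusted p = 0.00872) and Aen by -0.86 (SE 0.188, adjusted p = 0.00495). Ccng1 differed by -0.68 (SE 0.165, limma adjusted p = 0.00902), just short of the limit on p. Among the alternative fits Cdkn1a was called in 27 of 28, Aen in 15 of 26, Ccng1 in 9 of 27 and Mdm2 in 8 of 27. Phlda3 differed by -0.22 (95% interval from -0.61 to 0.17) and Trp53 by 0.15 (from -0.24 to 0.54).

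On the 1 slide that held both groups, with 2 arrays of each, the differences were -2.25 for Cdkn1a, -1.08 for Mdm2, -0.70 for Ccng1 and -0.56 for Aen. The Cdkn1a call was kept in all 12 fits that each left out 1 array. The Mdm2 call was lost in 11 of them, all but that without replicate 5 of the 25% mixed field, with values from -0.92 to -0.82 and p up to 0.0027. The Aen call was lost in 8, those without replicates 1, 4 or 6 of the 25% mixed field or without neutron replicates 1, 3, 4, 5 or 6, with p from 0.00105 to 0.00147. B cell markers stood higher after neutron alone than in the 25% mixed field for all 6 genes, with a median log2 difference of 2.73, and their part in these differences was not tested.

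**Figure D4:**
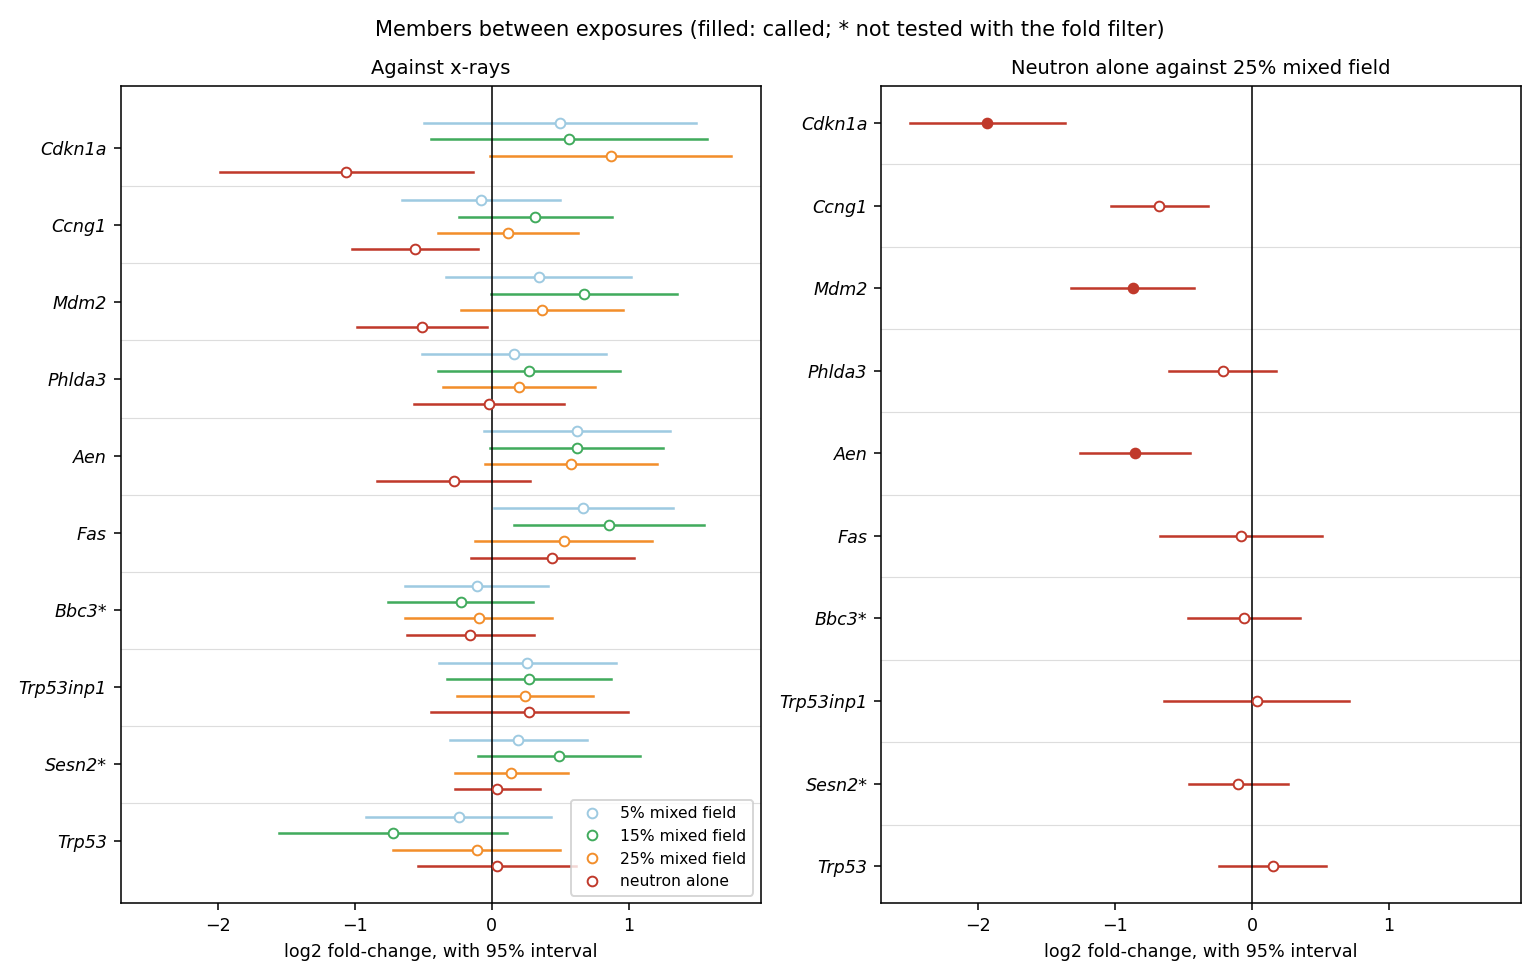
Log2 fold-change of each gene against x-rays in the left panel, for the 3 mixed fields and neutron alone, and of neutron alone against the 25% mixed field in the right panel, each with its 95% interval and filled where called. The left panel has no filled point, and in the right panel Cdkn1a at -1.93, Mdm2 at -0.87 and Aen at -0.86 are filled.

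Other genes of the pathway moved in both directions. Of 38 further p53 targets on a textbook list 30 were above background and 24 were tested. Called higher and lower were 3 and 4 after x-rays, 3 and 4 in the 5%, 3 and 3 in the 15% and 4 and 3 in the 25% mixed field, and 2 and 5 after neutron alone, beside the shares of all genes given above. Their median log2 fold-changes were -0.48, -0.22, -0.24, 0.23 and -0.45. Among those called higher were Gdf15, a secreted stress cytokine, and Gtse1, a cell cycle protein that binds p53. Gdf15 changed by 2.83, 3.88, 3.10 and 4.07 in the 4 groups with x-rays (limma adjusted p from 0.000131 to 0.00282) and by 0.18 (adjusted p = 0.694) after neutron alone. Gtse1 rose in all 5 groups, by 1.57, 2.67, 2.72, 2.58 and 0.89 (limma adjusted p from 5.34e-06 to 0.0023). Ccnd1, the G1 cyclin D1, was called higher in the 3 mixed fields, by 2.70, 2.55 and 2.40. Over all 5 groups its values lay between 1.58 and 2.70. Gadd45a, an arrest and repair gene, was called higher after x-rays, by 1.31, and after neutron alone, by 1.39. The Gadd45a values lay between 0.74 and 1.39 over all 5 groups.

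Against the 25% mixed field 4 of the 24 targets were called lower after neutron alone and 0 higher, beside the 7.35% and 4.02% of all genes. Those lower included Gdf15 by -3.89 (limma adjusted p = 0.000217) and Gtse1 by -1.68 (adjusted p = 0.000608). Several targets were lower than in controls. Ddb2, the damage sensor of nucleotide excision repair, fell in all 5 groups, by 2.09, 1.93, 1.86, 1.42 and 1.04 on the log2 scale (limma adjusted p from 4.42e-05 to 0.00128). Btg2, an antiproliferative gene, fell by 1.29, 1.48, 1.46 and 1.24 in the groups with x-rays, and its value after neutron alone was -0.72. Sfn, the arrest protein 14-3-3 sigma, was called lower by 1.62, 1.62, 1.78 and 0.93 in the mixed fields and after neutron alone. Its value after x-rays was -0.73 and was not called. Sesn1, the sestrin related to Sesn2, was called lower after x-rays by 1.52 and in the 5% mixed field by 1.08. Over all 5 groups the Sesn1 values lay between -1.52 and -0.47.

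Of 11 kinases and partners of p53, 10 were tested, and 2 and 5 were called higher and lower after x-rays, 1 and 4 in the 5%, 2 and 3 in the 15% and 1 and 2 in the 25% mixed field, and 1 and 1 after neutron alone. Of all genes 12.9% were called higher and 16.9% lower after x-rays, and 16.1% and 20.5% after neutron alone. Atm, the kinase that signals double-strand breaks to p53, fell by 2.10, 2.11, 2.45 and 1.83 in the groups with x-rays (limma adjusted p from 3.94e-06 to 0.000123), and its value after neutron alone was -1.12 (adjusted p = 0.0544). Atr, the kinase of stalled replication forks, was called lower by 1.76, 1.13 and 1.07 after x-rays and in the 5 and 15% mixed fields. Over all 5 groups the Atr values lay between -1.76 and -0.64. Hipk2, a kinase that phosphorylates p53, rose in all 5 groups, by 1.96, 1.85, 1.75, 1.74 and 0.71. Usp7, which removes ubiquitin from p53 and Mdm2, fell by 1.08, 1.42, 1.40, 1.08 and 1.22, but without the fold requirement a brighter probe replaced the one tested and gave 0.15, 0.42 and 0.14 in the 5, 15 and 25% mixed fields. In the promoter windows 10 of 28 further p53 targets held an exact half-site, 35.7% beside 9.55% of all genes with a window. A pair lay in 5 of them, 17.9% beside 4.71%.

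**Figure D5:**
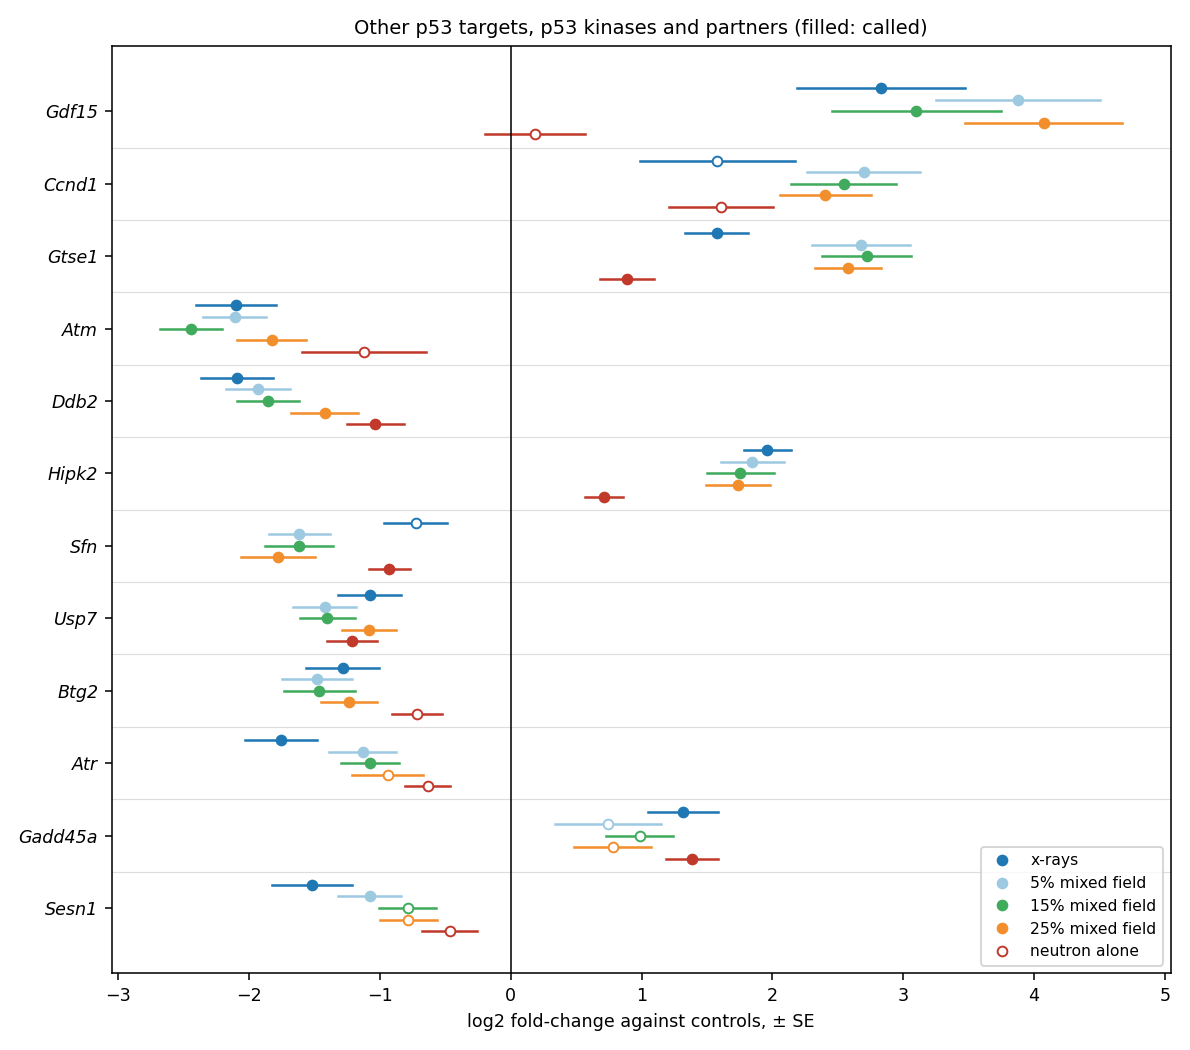
Log2 fold-change against the controls (± SE) of the 12 further p53 targets, kinases and partners named by rule, 1 point for each of the 5 exposures and filled where called. Gdf15 lies between 2.83 and 4.07 in the groups with x-rays and at 0.18 after neutron alone, and Ddb2 lies to the left of 0 in all 5.

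The genes whose pattern over the 36 arrays lay nearest to that of Cdkn1a, by the mean absolute difference of levels centred on their control means, were Snx21 (0.533), Ces2g (0.556) and a predicted transcript (0.579). Snx21, a sorting nexin, rose by 2.27, 2.67, 2.70, 2.62 and 0.96 in the 5 groups. Nearest to Trp53 were Klf16 (0.265), an expressed sequence tag named AA981787 (0.268) and Matr3 (0.268). Klf16, a zinc finger factor, fell by 1.42, 1.96, 2.25, 1.71 and 1.37 in the same order. These genes were picked for that likeness over the same arrays, so their values are a description.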

How the data were processed

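The authors deposited Agilent Feature Extraction 12.0.2 scanner output for 36 single-colour arrays of globin-reduced blood RNA, whose processed signal is an intensity after the authors' background correction, and a table of log2 expression values for 14243 probes, which was used as an alternative. Its scale and centring were read from the data: column medians lay between 6.28 and 6.99, and the values correlated with the scanner values at 0.995 to 0.999. Coordinates on the array are mm9 as annotated there.

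From the scanner intensity, the uniform spots of a probe were averaged on the log2 scale, and the median of all probes was subtracted from each array. Probes were kept if over 75% of arrays held them uniform and above background (21484 of 39429) and at least 20% of arrays differed 1.5-fold from that probe's median (17960), and the brightest was taken for each gene (15083). Each comparison was fitted on its 12 arrays with limma 3.58.1 in R 4.3.3, and p-values were adjusted by the Benjamini-Hochberg method over all genes. These filters and the limit of p below 0.001 follow the study's methods, with limma in place of the random variance t-test. Fits were tested on simulated data. Intervals are 95% intervals of the fit, and the number of arrays limits the precision. Promoters were searched in Python 3.11.15.

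The labels give each array's group, and the methods give 6 mice for each treatment. All 10 genes and every probe of each were named, then the 12 genes of the p53 lists with the largest mean change among those called against controls, and the 3 genes nearest to Cdkn1a and to Trp53. The genes and lists were chosen with earlier results of these data known. Of the neutrophil markers Ly6g had no probe under that name. T, NK, neutrophil, monocyte and platelet markers gave 0 to 2 calls of 5 or 6 in any comparison with controls. Replicate numbers did not pair the arrays (mean correlation 0.0375 over 90 same-numbered pairs, -0.0063 over 450 others). Alternatives covered scaling, background correction, filters, probes of a gene, test, threshold, blocks, array weights and each array left out.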

Additional observations from a re-analysis of the deposited data

Results flagged for a closer look

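Of 78 sets of 6 arrays, 1 for each probe and group, 7 held an array whose gap to its neighbour was larger, as a share of the group's range, than Dixon's 95% limit, which chance alone passes in about 5 percent of sets. The variant probe of Cdkn1a had a high control, replicate 3, at -1.48 with the next at -2.62 (0.755 of the range), and no control was well above background. Trp53 had a high array in the 25% mixed field, replicate 3, at 1.93 with the next at 1.54 (0.722). Mdm2 had a low x-ray array, replicate 5, at 6.17 with the next at 7.11 (0.784), the array without which its x-ray value was called. It also had a high array in the 25% mixed field, replicate 5, at 8.22 with the next at 7.44 (0.755). Fas had a high x-ray array, replicate 1, at 4.57 with the next at 3.67 (0.629). The dimmer Aen probe had a high array in the 5% mixed field, replicate 3, at 6.19 with the next at 5.42 (0.772). The dimmer Trp53inp1 probe had a high array in the 25% mixed field, replicate 5, at 2.28 with the next at 1.90 (0.648).

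The change against controls differed between neutron alone and the 25% mixed field, by limma's test of the difference itself, for Cdkn1a (-1.93), Mdm2 (-0.87) and Aen (-0.86), each lower after neutron alone on 6 of 6 arrays.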

How the results depend on the processing

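Of 174 alternative counts of called members, not counting those that left out single arrays, 136 stayed within 1.5 times the value given. The number of members tested also changed with the setting. Against controls there were 40 member values with the main filters. Scaling on the 75th percentile and centring on probes well above background left 30, and quantile normalization and the deposited table left 25. After x-rays (2 called) the count was 5 with scaling on the 75th percentile, with centring on probes well above background, with quantile normalization and with adjusted p alone, 4 from the deposited table, and 1 with the replicate number or the slide as a block. In the 5% mixed field (3 called) it was 6 with scaling on the 75th percentile, with centring on probes well above background and with adjusted p alone, 5 in one model over 36 arrays, and 0 with session or slide as a block. In the 15% mixed field (5 called) it was 1 with session or slide as a block. After neutron alone (2 called) it was 5 with scaling on the 75th percentile, 4 with centring on probes well above background and with quantile normalization, and 1 in one model over 36 arrays, with the slide as a random block and without the session 4 arrays. For neutron alone against x-rays (0 called) it was 1 with array weights (Mdm2), in the deposited table (Ccng1) and with each probe by itself (the variant probe of Cdkn1a). For neutron alone against the 25% mixed field (3 called) it was 1 in the deposited table, with quantile normalization and with the replicate block or the slide block, Cdkn1a each time.

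Normexp with each spot's own background gave 0 after x-rays, in each mixed field and after neutron alone, and 0 for neutron alone against the 25% mixed field. It failed on 11 arrays, where single spots with a bright local background upset the fit. With the array's median background, chosen after seeing the data, the counts were 0 after x-rays and in the 5%, 1 in the 15% and 2 in the 25% mixed field. After neutron alone the count was 2, Aen and Bbc3, and Cdkn1a was not called. Trp53 did not pass the filters under either normexp, so it was not tested there and these counts leave it out. Of called values, signs turned with the first normexp for Mdm2 in the 5% mixed field (-0.77), Gadd45a (-0.34) and Hipk2 (-0.37) after neutron alone and Usp7 in the 15% mixed field (0.15), with the second for Usp7 in the 25% mixed field (0.071), and without the fold filter for Usp7 in the 5, 15 and 25% mixed fields (0.15, 0.42 and 0.14). Of members' values against controls that were not called, 13 of 45 turned sign under the first normexp, among them Phlda3 in the 5% mixed field (-0.50) and after neutron alone (-0.52), Ccng1 (-0.45) and Aen (-1.09) in the 5% mixed field and Mdm2 after neutron alone (-1.21), and 10 of 40 under the second. Cdkn1a stayed above and Trp53 below the controls under every alternative in which each was tested.

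Leaving out single arrays gave counts of 2 to 3 after x-rays, 2 to 3 in the 5%, 4 to 5 in the 15% and 5 in the 25% mixed field, 1 to 3 after neutron alone, 0 to 1 for neutron alone against x-rays, 0 for each mixed field against x-rays, and 1 to 4 for neutron alone against the 25% mixed field. The arrays that share a replicate number share only that number, and the replicate block changed no other count by more than 1.5 times. Scaling on the 75th percentile moved the median of all genes after x-rays from -0.11 to 0.44 and after neutron alone from -0.12 to 0.30. Quantile normalization, which also gave larger counts there, had medians of 0.03 and -0.02. Whether the shift of the median accounts for the added calls was not tested. The session block in the 5 and 15% mixed fields rested on 1 array of each group and could not be fitted for the 25% mixed field and neutron alone. Causes of the other changes were not tested either.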
